A study of Mus musculus with 2 samples.

Results

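The genes described here code for proteins of the extracellular matrix and for enzymes and inhibitors that remodel it. They are Fn1, Sparc, Tgfbi, Vcan, Thbs1, Timp2, Mmp14 and Mmp19, which were picked by symbol and make up 8 of the 32286 features of the count tables. Each was followed across marker-defined cell classes and macrophage states in both libraries of a mouse heart study. The 2 libraries hold leukocytes from the left ventricles of mice that received a marrow transplant and then underwent TAC (transverse aortic constriction), a narrowing of the aorta that puts the left ventricle under pressure. One group carried LOY marrow (loss of the Y chromosome) and the other carried Control marrow, and all mice of both groups had TAC. Right ventricles were removed and the tissue was dissociated with collagenases, hyaluronidase and DNase. Viable CD45+ RFP+ cells were sorted, the RFP marking cells that came from the transplanted marrow, and each group was 1 droplet library from 3 mice pooled after the sort. The study's title places the comparison in cardiac fibrosis, the replacement of heart muscle by matrix. The age and genotype of the recipients, the time after TAC and the way LOY was produced are not given in the sources used here.

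Matrix in the pressure-loaded heart is made mainly by fibroblasts, while leukocytes add a few matrix proteins and many of the enzymes that cut and reshape it. Fibronectin forms the early scaffold on which collagen is laid down, versican binds hyaluronan in the provisional matrix, and thrombospondin-1, SPARC and TGFBI are matricellular proteins, which act on cells and on other matrix proteins more than as structural parts. Metalloproteinases of the MMP family digest matrix, and TIMP proteins inhibit them. TIMP2 also has a second role, since together with MMP14 at the cell surface it takes part in the activation of pro-MMP2.

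With 1 library per group, no difference below has a replicate check and no test was run. A UMI is a molecular barcode that lets each captured transcript be counted once, near its 3′ end. Levels are CPM, the UMIs of a gene divided by all UMIs of the class or state and scaled to the same total, and all intervals are exact 95% intervals that cover counting error only. The LOY library held 18710715 UMIs over 5475 barcodes and the Control library 42640861 over 7276. After filtering, 5180 LOY and 6601 Control cells remained, with a median of 3006 and 5090 UMIs. Transcripts of Y-linked genes summed to 14.0 CPM in the LOY library and to 124 CPM in the Control library, in the direction of the labels. The libraries shared 31 barcode sequences, 19 of them among kept cells. Neither library is a pure leukocyte sample, since fibroblast-like cells (10 in LOY, 13 in Control) were also found. A cluster led by the cardiomyocyte gene Myl7 (66 in LOY, 27 in Control) was left unnamed. Its 10 macrophage markers summed to 36379 CPM in LOY and 30856 CPM in Control. In macrophage-like cells these sums were 32599 and 27764 CPM, so the Myl7 cluster was not shown to lie outside the leukocytes.

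Most kept cells were macrophage-like (3771 LOY, 4423 Control), and next came monocyte-like cells (539 LOY, 189 Control). Both names rest on markers. The 9 clusters called macrophage-like had 9 or 10 of 10 macrophage markers detected in at least 25% of their cells. A level per class does not tell fewer transcripts per cell from fewer transcribing cells, so shares of cells with a UMI are also given for some genes. The classes differ in depth as well, with medians of 3235 and 5679 UMIs per macrophage-like cell, 2893 and 7083 per monocyte-like cell and 854 and 2044 per B cell-like cell in the LOY and Control libraries.

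Where the transcripts came from differed by gene. Macrophage-like cells held 95.3% of all LOY and 93.8% of all Control Timp2 UMIs, 82.8% and 72.9% of those of Mmp14, and 72.6% and 77.3% of those of Tgfbi. Monocyte-like cells held 63.0% of LOY and 77.1% of Control Vcan UMIs. Sparc was the exception among the 8, since the few fibroblast-like cells held 84.4% of its LOY and 81.9% of its Control UMIs. For Fn1 and Thbs1 the named class with the largest share differed between the libraries. Macrophage-like cells held 52.6% of Fn1 UMIs in LOY and 12.6% in Control, and 54.1% of Thbs1 UMIs in LOY and 7.5% in Control. Monocyte-like cells held 743 of 2136 Fn1 UMIs in LOY and 1514 of 3029 in Control, and 34.3% of Thbs1 UMIs in LOY and 71.8% in Control. A cluster led by Retnla, left unnamed though 9 macrophage markers were detected in it, held 5.29% of Fn1 UMIs in LOY and 30.1% in Control. The macrophage-like shares of Fn1 thus depend on how that cluster is named.

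**Figure D1:**
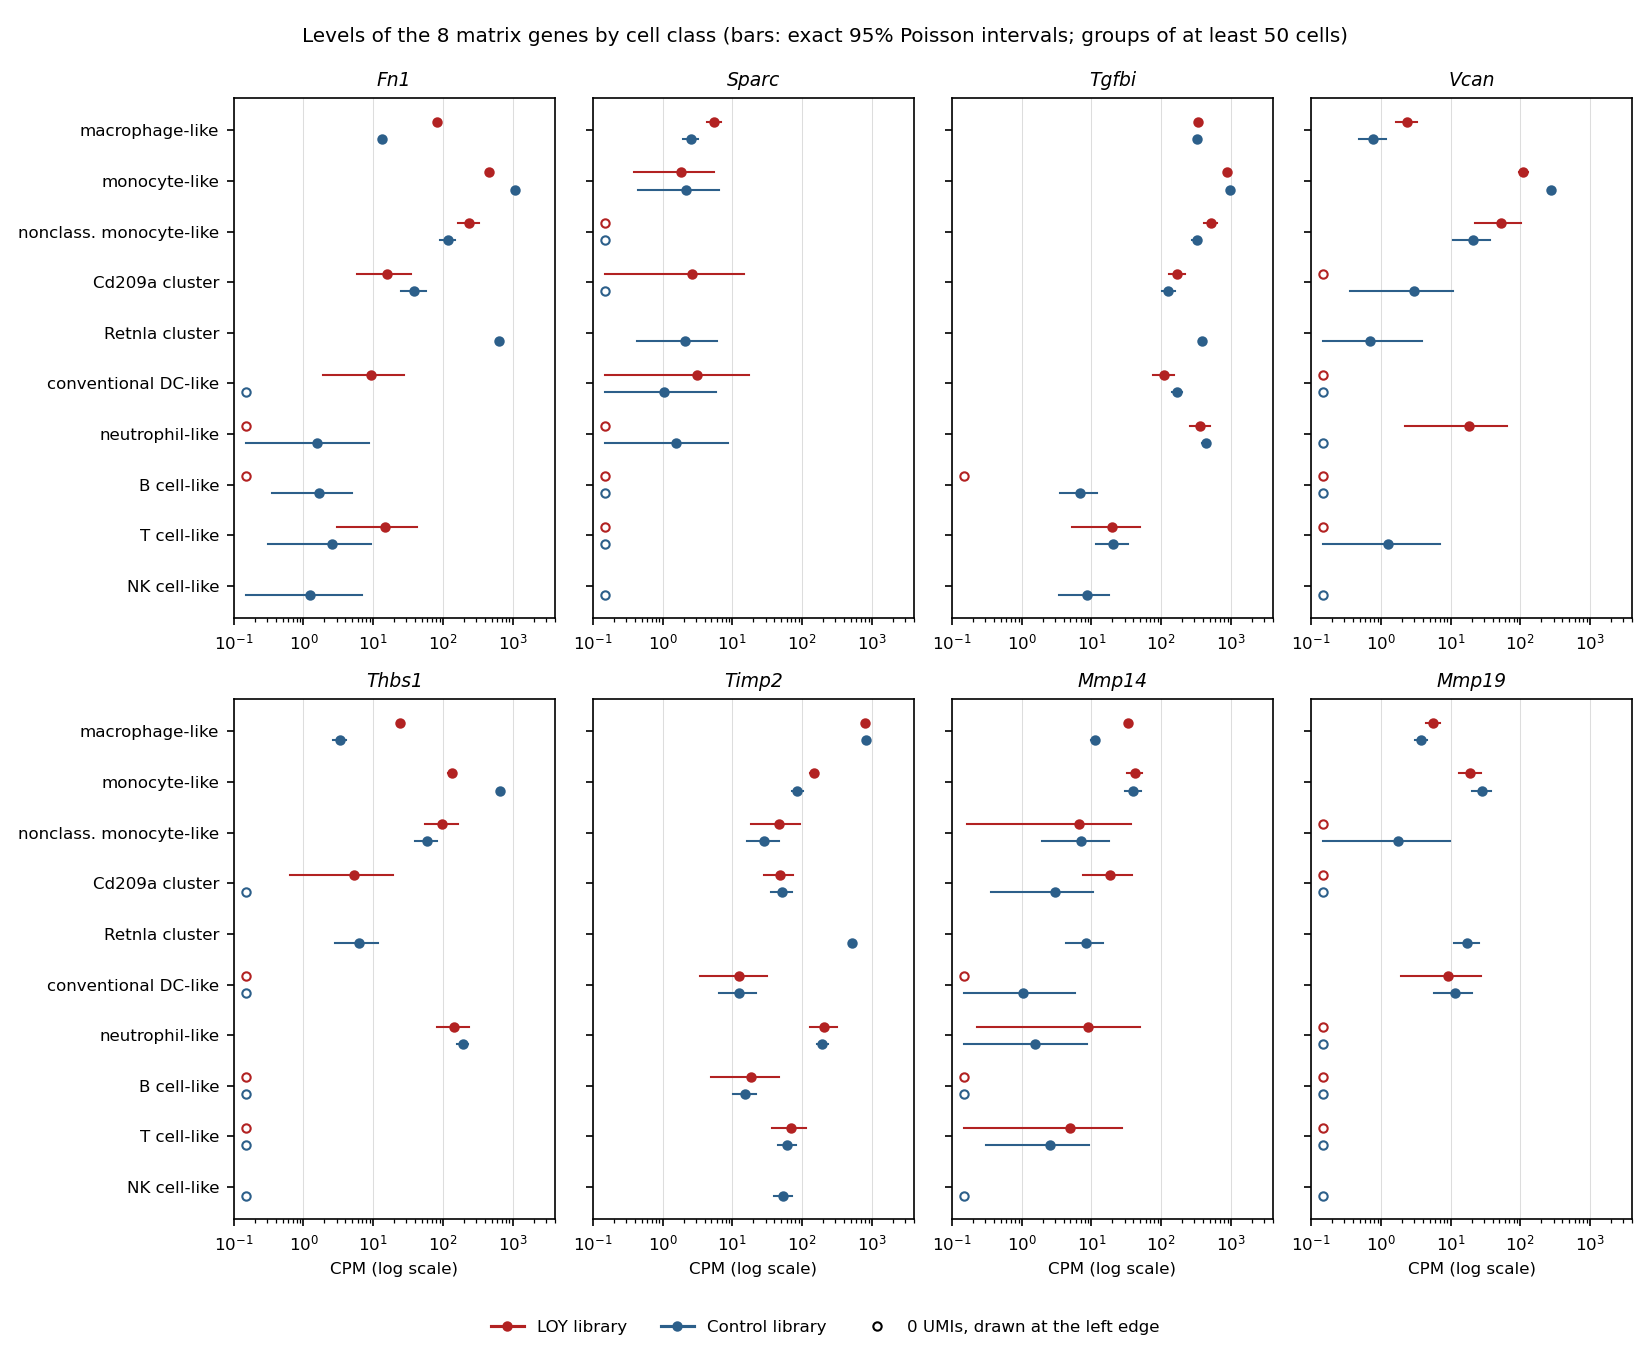
Level of each gene (CPM, log scale) in classes with at least 50 cells in a library, without the Myl7 cluster. LOY (red) is drawn above Control (blue), with exact 95% Poisson intervals as bars and open circles where no UMI was found. Fn1, Vcan and Thbs1 are highest or among the highest in monocyte-like cells, Timp2 is highest in macrophage-like cells, and B cell-like cells sit at or near 0 for Fn1, Sparc, Vcan, Thbs1, Mmp14 and Mmp19.

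Fn1 codes for fibronectin and lies on chromosome 1 at 71585520 to 71653200 (mm10, minus strand). Its level in monocyte-like cells was 461 CPM in LOY and 1095 CPM in Control, the highest of the named classes of at least 50 cells in each library. In macrophage-like cells it was 81.0 CPM (76.3 to 85.9) in LOY and 13.4 CPM (12.1 to 14.9) in Control, which is 6.02-fold higher in LOY (5.36 to 6.78). In monocyte-like cells LOY was below Control (ratio 0.421, 0.385 to 0.460), but this order was not stable. In the Chil3 cluster of that class the ratio was 1.02, and the log2 ratio of the class was 0.08 with at most 5% mitochondrial UMIs, -0.14 with no doublets removed, -0.11 at clustering resolution 0.5 and -0.35 with each library clustered on its own, none of them past 1.5-fold. The 8 monocyte markers, in whose class Fn1 was highest, summed to 654 CPM (640.2 to 667) in LOY and 555 CPM (546 to 563) in Control over macrophage-like cells, in the same direction as Fn1, and their part in the macrophage-like result was not tested. The unnamed Retnla cluster, led by a gene of alternatively activated macrophages, also held much Fn1, at 848 CPM in 30 LOY cells and 631 CPM in 137 Control cells. It had 9 macrophage markers detected, but the 6.02-fold ratio leaves it out. Its Fn1 UMIs were 113 in LOY and 912 in Control, against 1124 and 382 in macrophage-like cells. With this cluster, monocyte-like cells and other unnamed myeloid clusters added to the macrophage-like cells, Fn1 was not over 1.5-fold higher in LOY. Nonclassical monocyte-like cells had 236 CPM in LOY and 118 CPM in Control (2.00-fold, 1.29 to 3.04).

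The share of cells with an Fn1 UMI was compared after each cell had been thinned to 1000 UMIs. Among macrophage-like cells it was 206 of 3696 in LOY (5.57%, 4.86 to 6.36) and 21 of 4391 in Control (0.478%, 0.296 to 0.730). Without thinning the shares were 12.7% and 1.97%. B cell-like cells, which should not express Fn1, gave 0 of 62 in LOY, which allows up to 4.84%, and 2 of 796 in Control (0.251%, 0.0304 to 0.905). The interval of the Control macrophage-like share overlaps that of the Control B cell-like share, so at this depth the Control share was not above background. Per UMI, LOY B cell-like cells had no Fn1, which allows up to 13.8 CPM at the limit of 3 counts, and Control B cell-like cells had 1.70 CPM (0.350 to 4.96), both below the macrophage-like level of the same library. Other cells that should lack Fn1 held a few UMIs. NK cell-like cells had 28.4 CPM (5.85 to 82.9, 3 UMIs, 48 cells) in LOY and 1.23 CPM (1 UMI) in Control, T cell-like cells 14.6 CPM (3.02 to 42.8, 3 UMIs) in LOY and 2.57 CPM (2 UMIs) in Control, and conventional dendritic cell-like cells 9.33 CPM (3 UMIs) in LOY and no UMI in Control. The macrophage-like level of LOY was above the upper ends of the T cell-like and dendritic cell-like intervals and within the NK cell-like one. The Control Fn1 UMIs were also unevenly spread. The 10 macrophage-like cells richest in Fn1 held 52.6% of them, against 13.3% in LOY, and a single Control cell of the chemokine state had 61.

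Vcan codes for versican, a large chondroitin sulfate proteoglycan (chromosome 13, 89655312 to 89742509, minus strand). It had 111 CPM in LOY monocyte-like cells and 276 CPM in Control monocyte-like cells (ratio 0.403, 0.335 to 0.482), an order that was not stable, since the log2 ratio was -0.14 with at most 5% mitochondrial UMIs, -0.11 with no doublets removed, -0.01 at clustering resolution 0.5 and -0.52 with each library clustered on its own. Nonclassical monocyte-like cells followed, with 52.5 CPM in LOY and 21.2 CPM in Control, and here the interval of the ratio held 1. Of the 8 genes 4 (Fn1, Tgfbi, Vcan and Thbs1) were over 1.5-fold higher in LOY in that class with 10 CPM added to both levels, where 16.4% of all measured features were, and none was lower, where 23.7% were. In macrophage-like cells Vcan was almost absent, at 33 UMIs (2.38 CPM) in LOY and 22 UMIs (0.774 CPM) in Control, a ratio of 3.07 (1.74 to 5.53). After thinning, 7.50% of LOY and 19.7% of Control monocyte-like cells had a Vcan UMI, whereas 0 of 62 LOY and 0 of 796 Control B cell-like cells had one, which allows up to 4.84% and 0.377%.

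Thbs1 codes for thrombospondin-1, which platelets and monocytes release and which can activate latent TGF-β (chromosome 2, 118111876 to 118127133, plus strand). Monocyte-like cells had 134 CPM in LOY and 649.6 CPM in Control, the largest difference of the 8 genes in this class (ratio 0.206, 0.177 to 0.239). Macrophage-like cells had 24.6 CPM in LOY and 3.31 CPM in Control, 7.43-fold higher in LOY (5.89 to 9.43). Thbs1 was thus lower in LOY monocyte-like and higher in LOY macrophage-like cells, and the monocyte-like order held in all 14 alternatives (log2 ratio -2.41 to -1.32). Neutrophil-like cells were a further source, at 145 CPM in LOY and 193 CPM in Control, with a ratio whose interval held 1 (0.750, 0.416 to 1.27). The 7 LOY and 18 Control platelet-like cells had 796 and 1063 CPM. No Thbs1 UMI was found in B cell-like, T cell-like, NK cell-like or conventional dendritic cell-like cells of either library. After thinning, 2.25% of LOY (1.79 to 2.78) and 0.273% of Control (0.141 to 0.477) macrophage-like cells had a Thbs1 UMI. No B cell-like cell had one, which at these cell numbers allows more than either share, so on shares of cells alone neither stands clear of background. Per UMI, the 0 Thbs1 UMIs of LOY B cell-like cells allow up to 13.8 CPM, below the 24.6 CPM of LOY macrophage-like cells.

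Tgfbi codes for a collagen- and integrin-binding protein induced by TGF-β (chromosome 13, 56609523 to 56639562, plus strand). It was detected broadly over myeloid cells, and was highest in monocyte-like cells at 879.9 CPM in LOY and 981 CPM in Control. Macrophage-like cells had 337 CPM in LOY and 331 CPM in Control, a ratio of 1.02 (0.982 to 1.05). Differences beyond counting error stood in smaller classes and in both directions. Nonclassical monocyte-like cells were at 512 CPM in LOY and 322 CPM in Control (1.59-fold, 1.20 to 2.09), and conventional dendritic cell-like cells at 109 CPM in LOY and 169.6 CPM in Control (ratio 0.642, 0.432 to 0.929).

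Sparc codes for a collagen-binding matricellular protein typical of fibroblasts and endothelium (chromosome 11, 55394500 to 55423183, minus strand). The fibroblast-like cells had 9499 CPM in LOY and 3995 CPM in Control. In macrophage-like cells it came to 76 UMIs (5.48 CPM) in LOY and 72 UMIs (2.53 CPM) in Control, a 2.16-fold ratio (1.54 to 3.03). Macrophage-like cells that also held a UMI of a fibroblast or endothelial marker (4.56% of LOY and 11.3% of Control macrophage-like cells) had 23.0 CPM of Sparc in LOY and 5.37 CPM in Control. The other macrophage-like cells had 4.49 CPM in LOY and 2.06 CPM in Control, so Sparc was higher in LOY on both sides of this split. Summed over macrophage-like cells, the 8 fibroblast markers came to 5.33 CPM in LOY, with Pdgfra and Tcf21 at 0, and to 7.15 CPM in Control. The 7 endothelial markers came to 8.65 CPM in LOY, with Cldn5 at 0, and to 16.9 CPM in Control. The 7 markers of smooth muscle cells or pericytes came to 4.25 CPM (3.24 to 5.48) in LOY and 2.75 CPM (2.17 to 3.43) in Control. The fibroblast and endothelial sums were thus lower in LOY, and the smooth muscle or pericyte sum was higher, as Sparc was. The part of these cells in the Sparc values was not tested.

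Timp2 codes for the inhibitor (chromosome 11, 118301069 to 118355740, minus strand) and was the member most tied to macrophages. Macrophage-like cells had 795.5 CPM in LOY and 829 CPM in Control, a ratio of 0.959 (0.938 to 0.981), so the libraries lay within 5% of each other. Monocyte-like cells had 148 CPM in LOY and 85.4 CPM in Control (1.74-fold, 1.39 to 2.18). T cell-like cells had 68.3 CPM in LOY and 61.8 CPM in Control, and B cell-like cells 18.4 CPM in LOY and 15.3 CPM in Control. After thinning, 47.3% of LOY and 49.2% of Control macrophage-like cells had a Timp2 UMI, against 1.61% of LOY and 1.51% of Control B cell-like cells.

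Mmp14 codes for the membrane-anchored collagenase MT1-MMP (chromosome 14, 54431612 to 54445364, plus strand). Macrophage-like cells had 33.9 CPM (30.9 to 37.1) in LOY and 11.1 CPM (9.90 to 12.4) in Control, 3.06-fold higher in LOY (2.65 to 3.54). Monocyte-like cells had 41.5 CPM in LOY and 39.8 CPM in Control (ratio 1.04, 0.720 to 1.52), so the difference seen in macrophage-like cells was not detectable there. The thinned share of macrophage-like cells with an Mmp14 UMI was 3.65% in LOY (3.07 to 4.31) and 1.05% in Control (0.768 to 1.39), and no B cell-like cell had one, which allows up to 4.84% in LOY and 0.377% in Control. Mmp19, a secreted metalloproteinase (chromosome 10, 128790910 to 128800824, plus strand), was sparse throughout. It had 19.2 CPM in LOY and 28.2 CPM in Control monocyte-like cells, and 5.62 CPM in LOY and 3.80 CPM in Control macrophage-like cells (1.48-fold, 1.09 to 2.00).

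Promoter sequence was at hand for 5 of the 8 genes (Sparc, Tgfbi, Vcan, Timp2 and Mmp14, from RefSeq on GRCm38.p6, the build called mm10). The 250 bases before the start are shown for the 2 genes whose window does not reach into the annotated gene. They differ in their class pattern, with most Vcan UMIs in monocyte-like and most Mmp14 UMIs in macrophage-like cells. Capitals mark the GC box GGGCGG, searched on both strands.
Mmp14, chr14:54431348-54431597, plus strand: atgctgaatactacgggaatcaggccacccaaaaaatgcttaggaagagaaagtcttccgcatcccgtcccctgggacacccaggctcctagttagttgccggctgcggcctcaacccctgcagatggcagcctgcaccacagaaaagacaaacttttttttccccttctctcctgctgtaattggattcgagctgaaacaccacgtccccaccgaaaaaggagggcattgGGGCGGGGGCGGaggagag
Vcan, chr13:89742513-89742762, minus strand: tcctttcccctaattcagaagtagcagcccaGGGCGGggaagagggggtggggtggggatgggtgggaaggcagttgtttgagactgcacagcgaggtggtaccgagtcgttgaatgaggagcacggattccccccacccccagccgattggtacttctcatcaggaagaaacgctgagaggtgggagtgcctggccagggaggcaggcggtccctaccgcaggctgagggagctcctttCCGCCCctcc
Mmp14 has 2 adjacent GC boxes that begin 19 and 13 bases before the start, and Vcan has 2 that begin 219 and 10 bases before it. At least 1 GC box is found in 32.7% of the 32851 promoters of the table. The AP-1 motif TGANTCA, found in 6.75% of them, has no match in either window on either strand, which says only that these letters are not there.

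The members were also set against all genes. A gene was called measured when at least 1 of the libraries reached 10 CPM, and it counts as higher or lower when log2((LOY CPM + 10)/(Control CPM + 10)) passes 1.5-fold, a scale that understates differences of low genes. Of the 8 members 5 were measured in macrophage-like cells. Of these 5, 3 (Fn1, Thbs1 and Mmp14) were higher in LOY, where 6.53% of all 7839 measured features were. None of the 8 was lower, where 8.06% of all features were. Without added CPM, the interval of the ratio lay above 1 for Fn1, Sparc, Vcan, Thbs1, Mmp14 and Mmp19. It held 1 for Tgfbi and lay below 1 for Timp2. The log2 ratios were 1.96 for Fn1, 1.38 for Thbs1 and 1.06 for Mmp14. The median of the 8 was 0.25, and that of all measured features was -0.02. In monocyte-like cells 7 of the 8 were measured. There 1 member (Timp2) was higher in LOY, with 7.83% of all 7319 features, and 3 (Fn1, Vcan and Thbs1) were lower, with 14.7%. Of these 4 calls, that of Thbs1 held in all 14 alternatives, while Fn1 and Vcan were no longer over 1.5-fold lower in the 4 settings given above for each. Timp2 was no longer over 1.5-fold higher in 8 of the 14 alternatives. It turned its direction with at most 5% mitochondrial UMIs (-0.73), which left 78 LOY and 100 Control monocyte-like cells, with no doublets removed (-0.21) and with each library clustered on its own (-0.15).

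In the joint clustering, the macrophage-like class was not made of the same states in both libraries. Clusters were assigned to states by markers, and most LOY cells of the class belonged to the Gpnmb state (a lipid-associated state led here by Spp1, 1342 LOY and 27 Control cells), the Tmem119 state (760 LOY, 28 Control) and the Lyve1 state (resident-like cells, 582 LOY, 92 Control). Most Control cells belonged to the MHC class II state (277 LOY, 1283 Control), the Slc40a1 state (138 LOY, 1270 Control) and the chemokine state (57 LOY, 1098 Control). The genes leading the Slc40a1 state held its markers Pla2g2d and Slc40a1, and also the Lyve1 state markers Lyve1 and Folr2. The interferon state (188 LOY, 387 Control), the cycling state (392 LOY, 153 Control) and a cluster led by Cxcl13 (35 LOY, 85 Control) held the rest. These numbers depended on the joint clustering. Clustered on its own, LOY had 588 chemokine, 656 interferon, 510 MHC class II and 175 Gpnmb state cells, and no Tmem119 state. Control on its own had 761 chemokine, 966 Lyve1 and 31 Slc40a1 state cells. The comparisons within states below use the joint clustering. When each state was given equal weight, the log2 ratio of Fn1 was 0.47, that of Mmp14 0.36 and that of Thbs1 0.64, so that 1 member (Thbs1) remained over 1.5-fold higher. This setting counts states with under 30 cells in 1 library as much as the others. Without the Gpnmb and Tmem119 states, an alternative added after seeing the data, Fn1 stayed at 1.87, while Thbs1 fell short of the threshold at 0.51 and Mmp14 at 0.57.

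**Figure D2:**
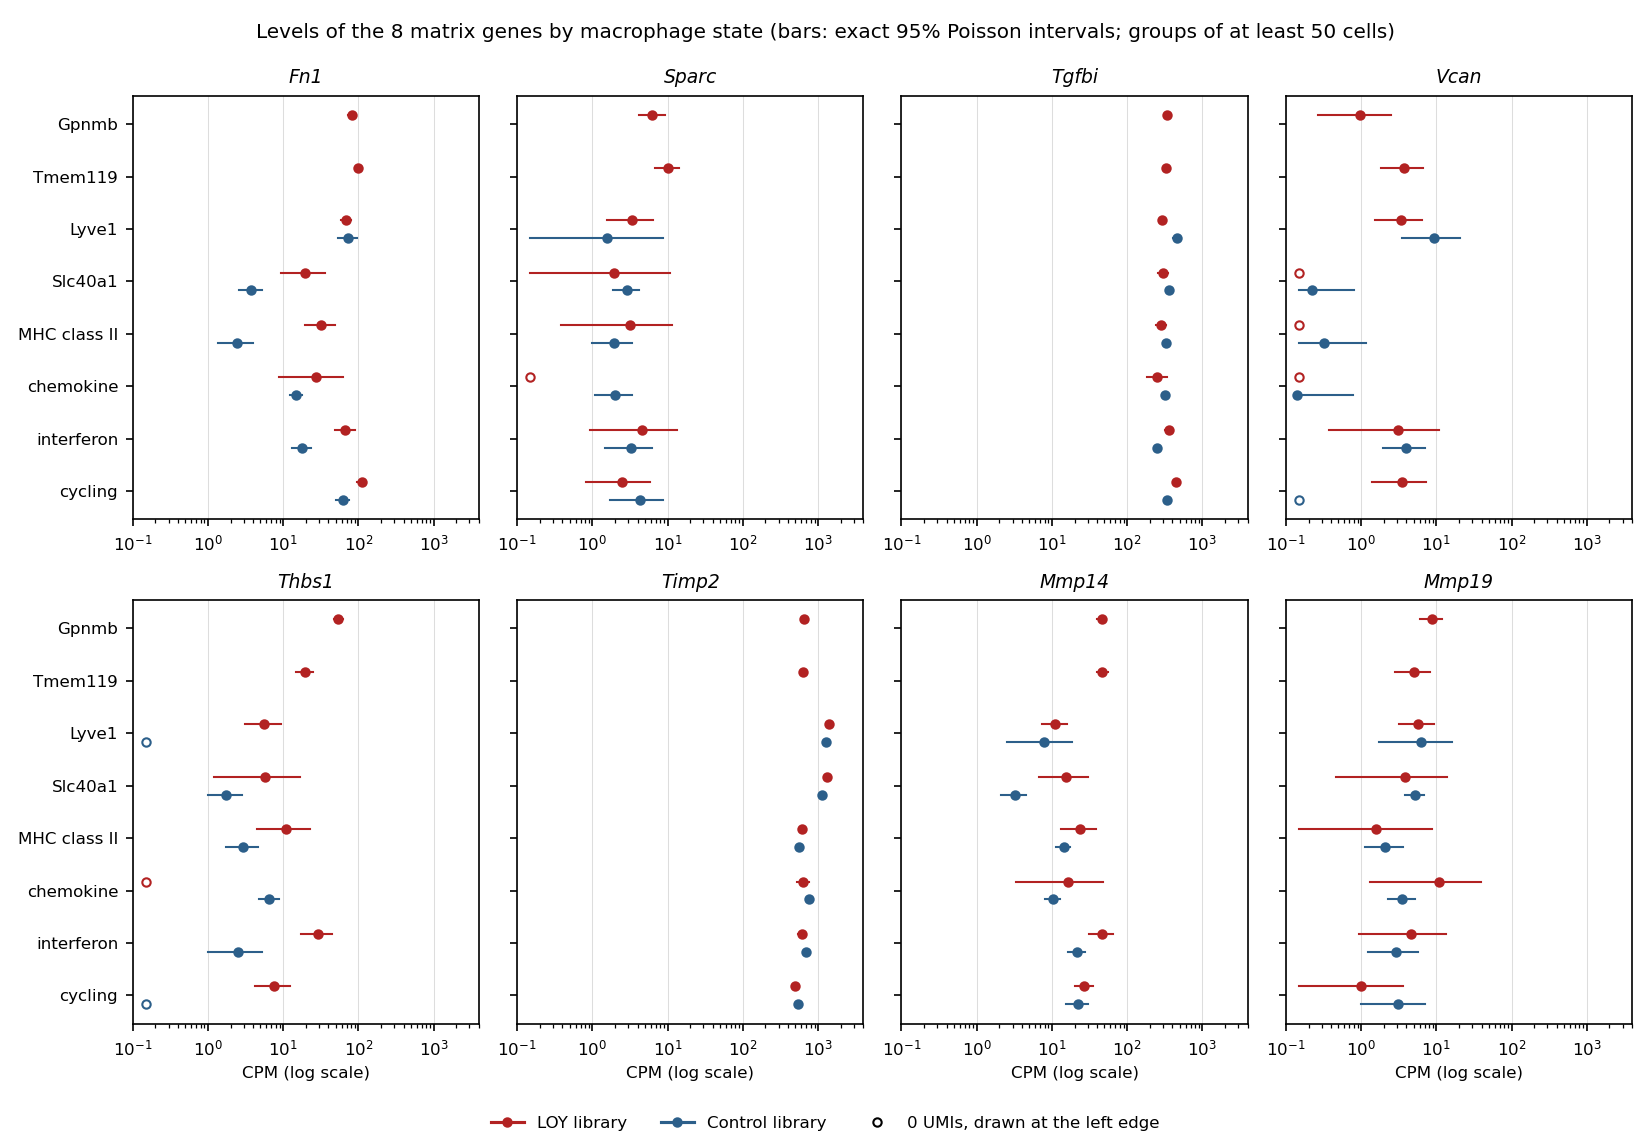
Level of each gene (CPM, log scale) in macrophage states with at least 50 cells in a library, without the Cxcl13 cluster. LOY (red) is drawn above Control (blue), with exact 95% Poisson intervals as bars and open circles where no UMI was found. Timp2 is highest in the Lyve1 and Slc40a1 states of both libraries, and Fn1 in the MHC class II state is at 31.5 CPM in LOY against 2.41 CPM in Control.

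Within states, Fn1 was higher in LOY in 4 of the 6 states that held at least 50 cells in both libraries, beyond counting error. In the MHC class II state it had 31.5 CPM in LOY and 2.41 CPM in Control (13.1-fold, 6.37 to 27.5), from 20 and 15 UMIs, and 10 cells held 90% of those in LOY. In the Slc40a1 state it had 19.3 CPM in LOY and 3.74 CPM in Control (5.16-fold, 2.28 to 10.7). The LOY levels of these 2 states, with intervals of 19.3 to 48.7 and 9.27 to 35.5 CPM, overlap those of LOY T cell-like and NK cell-like cells, so at this depth they were not shown to be above background. In the interferon state Fn1 had 67.2 CPM in LOY and 17.7 CPM in Control (3.79-fold, 2.47 to 5.82). The cycling state had 111 CPM in LOY and 61.8 CPM in Control (1.80-fold, 1.42 to 2.30), but a single Control cell gave 38 of its 101 UMIs. In the chemokine state the interval held 1, at 27.0 CPM in LOY and 14.9 CPM in Control. Most of the 105 Control UMIs there came from the single Fn1-rich cell described above. The interval of the Lyve1 state also held 1, at 68.7 CPM in LOY and 72.3 CPM in Control. This result was not stable, since the log2 ratio of Fn1 in the Lyve1 state ranged from -0.67 to 2.26 over 15 alternatives. The 2 states with few cells in Control went opposite ways. In the Gpnmb state Fn1 had 81.2 CPM in LOY and 196 CPM in the 27 Control cells (ratio 0.413, 0.284 to 0.622), where 16 of 30 Control UMIs came from 1 cell. In the Tmem119 state it had 100.4 CPM in LOY and no UMI in the 28 Control cells, which makes it at least 7.66-fold higher when 3 counts are set for Control (the exact interval begins at 6.19). Monocyte markers were lower in LOY in the MHC class II and Slc40a1 states, where Fn1 was higher. The 8 monocyte markers summed to 441 CPM in LOY and 726 CPM in Control in the MHC class II state, and to 197 CPM in LOY and 308 CPM in Control in the Slc40a1 state. In the interferon state the monocyte markers were higher in LOY, as Fn1 was, at 2028 CPM in LOY and 1232 CPM in Control. Their part in the Fn1 values of any of these states was not tested.

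Read against all measured features, members over 1.5-fold higher in LOY were 2 in the MHC class II state (Fn1 and Thbs1, background 7.56%), 2 in the Slc40a1 state (Fn1 and Mmp14, background 7.21%) and 3 in the interferon state (Fn1, Thbs1 and Mmp14, background 7.9%). No member was lower in these states, against backgrounds of 9.92% in the MHC class II, 11.8% in the Slc40a1 and 14.6% in the interferon state. The cycling state had 2 higher (Fn1, and Thbs1 at under 10 CPM, background 6.4%) and none lower (background 11.4%). The chemokine state, with 57 LOY cells, had 1 higher (Mmp19, on 2 LOY UMIs, background 14.5%) and 1 lower (Thbs1, under 10 CPM in both libraries, background 18.3%). That call rests on no LOY UMI against 46 in Control, and the interval of the ratio, 0 to 3.18, holds 1.

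The Lyve1 state is the one state that was followed across settings. Its border with the Slc40a1 state shifted with the settings, so that the number of its Control cells ranged from 88 to 1346. In that state 1 member (Thbs1, 15 LOY UMIs and none in Control, under 10 CPM in both libraries and so not among the 4 measured) was over 1.5-fold higher in LOY, with 7.3% of all measured features, and 1 (Tgfbi, 292 CPM in LOY and 460.2 CPM in Control) was lower, with 13.6%. When the Lyve1 and Slc40a1 states were joined, which was also added after seeing the data, 720 LOY and 1362 Control cells could be compared. The Slc40a1 state on its own was not followed across settings, and its values above share that border. In the joined states Fn1 had 60.7 CPM in LOY and 8.23 CPM in Control (7.38-fold, 5.66 to 9.70), and Mmp14 had 11.6 CPM in LOY and 3.50 CPM in Control (3.33-fold, 2.03 to 5.46). These 2 members were the ones over 1.5-fold higher, with 6.08% of all features, and none was lower, with 8.04%. Timp2 had 1404 CPM in LOY and 1133 CPM in Control, a ratio of 1.24 (1.20 to 1.28), and Tgfbi had 293 CPM in LOY and 371 CPM in Control, a ratio of 0.790 (0.734 to 0.849).

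Thbs1 and Mmp14 were concentrated in other states. Thbs1 was highest among macrophage states in the Gpnmb state of LOY, at 54.3 CPM (47.4 to 61.9), and 224 of the 341 Thbs1 UMIs of LOY macrophage-like cells came from it. The 27 Control cells of that state had 5 UMIs (32.7 CPM), and the interval of the ratio held 1. In the interferon state Thbs1 had 29.0 CPM in LOY and 2.53 CPM in Control (11.5-fold, 4.61 to 32.3). Mmp14 was nearly level over 3 LOY states, at 47.0 CPM in the Tmem119 state, 46.1 CPM in the Gpnmb state and 45.8 CPM in the interferon state, whose intervals overlapped. It was lowest in LOY in the Lyve1 state, at 10.9 CPM. Compared within states, Mmp14 was higher in LOY beyond counting error in the Slc40a1 state (15.5 CPM in LOY, 3.19 CPM in Control) and in the interferon state (45.8 CPM in LOY, 21.7 CPM in Control), while in the other 4 states with at least 50 cells in both libraries the interval held 1, as it did in the Tmem119 and Gpnmb states.

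Timp2 was highest in the resident-like states in both libraries. It had 1421 CPM in LOY and 1279 CPM in Control in the Lyve1 state, and 1319.8 CPM in LOY and 1122 CPM in Control in the Slc40a1 state. The remaining states of at least 50 cells lay between 502 and 643 CPM in LOY and between 543 and 944 CPM in Control. The Control range counts the Cxcl13 cluster. Tgfbi varied less, between 253 and 453 CPM in LOY and between 252 and 460.2 CPM in Control.

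**Figure D3:**
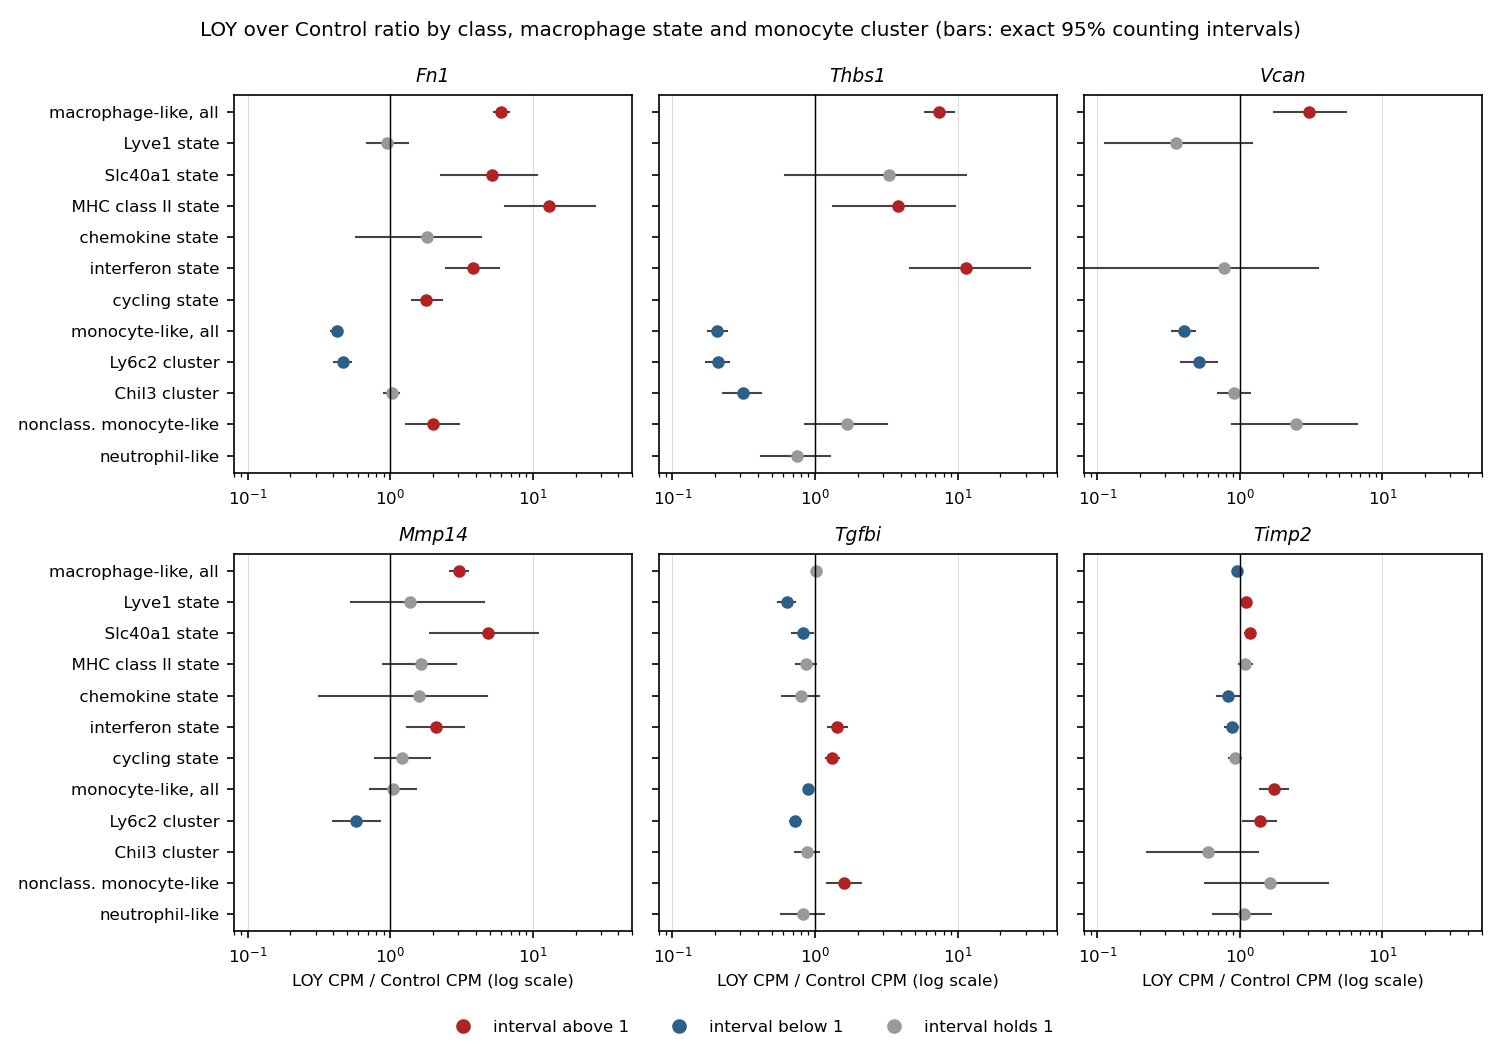
Ratio of LOY to Control CPM (log scale, bars are exact 95% counting intervals) for 6 of the genes in the macrophage-like class and its states, the monocyte-like class and its 2 clusters, and 2 further classes, drawn where both libraries had UMIs and at least 10 in all. Fn1 and Thbs1 are above 1 in macrophage-like cells (6.02 and 7.43) and below 1 in monocyte-like cells (0.421 and 0.206), and Fn1 is at 1.02 in the Chil3 monocyte cluster.

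The monocyte-like class was made of 2 clusters, and the libraries drew on them unequally. The cluster led by Ly6c2 held 459 LOY and 86 Control cells, and the one led by Chil3, a chitinase-like gene of young monocytes, held 80 LOY and 103 Control cells. In the Chil3 cluster Fn1 had 1519 CPM in LOY and 1484 CPM in Control (ratio 1.02, 0.902 to 1.16), and Vcan had 355 CPM in LOY and 389.9 CPM in Control (ratio 0.911, 0.698 to 1.18). No difference in either gene was detectable there. In the Ly6c2 cluster Fn1 had 299 CPM in LOY and 642 CPM in Control (ratio 0.465, 0.405 to 0.535), and Vcan had 73.6 CPM in LOY and 143 CPM in Control (ratio 0.517, 0.386 to 0.693). Thbs1 was lower in LOY in both clusters, at 219.7 CPM in LOY and 707 CPM in Control in the Chil3 cluster, and at 121 CPM in LOY and 583 CPM in Control in the Ly6c2 cluster.

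With all measured features as background, the Ly6c2 cluster had no member over 1.5-fold higher (background 8.79%) and 4 lower (Fn1, Vcan, Thbs1 and Mmp14, background 14.0%). The Chil3 cluster had none higher (background 13.1%) and 2 lower (Thbs1 and Timp2, background 21.6%).

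Macrophage markers moved with these results. The 10 macrophage markers summed to 12380 CPM in LOY and 4234 CPM in Control over monocyte-like cells, while the 8 monocyte markers summed to 7305 CPM in LOY and 11433 CPM in Control. In the Ly6c2 cluster the macrophage markers came to 13998 CPM in LOY and 7786 CPM in Control, and in the Chil3 cluster to 1799.8 CPM in LOY and 1184 CPM in Control. The part of this shift in the Fn1, Vcan, Thbs1 and Timp2 differences was not tested. Timp2, which had 166 CPM in LOY and 121 CPM in Control in the Ly6c2 cluster, had 32.7 CPM in LOY and 55.1 CPM in Control in the Chil3 cluster, where the interval of the ratio held 1.

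Other matrix genes were sparse in macrophage-like cells. Of 27 interstitial matrix and basement membrane genes, 2 were measured and neither passed 1.5-fold, Col14a1 at 64.0 CPM in LOY and 43.1 CPM in Control and the laminin gene Lamc1 at 10.2 CPM in LOY and 8.73 CPM in Control. Col1a1, the main fibrillar collagen of fibroblasts, had 11 UMIs in LOY and 12 in Control. Of 20 matricellular genes, 5 were measured and 2 were higher in LOY, Spp1 (osteopontin, 366 CPM in LOY and 25.2 CPM in Control) and Ecm1 (222 CPM in LOY and 86.8 CPM in Control), with a list median of 0.50. Spp1 leads the Gpnmb state, of which LOY had 1342 cells and Control 27 in the joint clustering, and is one of the markers that name it. The part of this state in the Spp1 values was not tested.

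Of 18 further metalloproteinase genes, 3 were measured in macrophage-like cells, and all 3 were over 1.5-fold lower in LOY, where 8.06% of all measured features were. Mmp13 had 8.65 CPM in LOY and 34.8 CPM in Control, Mmp9 (a gelatinase) 4.54 CPM in LOY and 19.7 CPM in Control, and Mmp12 (the macrophage elastase) 15.1 CPM in LOY and 33.5 CPM in Control. None of the 6 other inhibitor genes was measured. In the plasminogen system 8 of 11 were measured and 2 were lower, Serpinf1 (12.1 CPM in LOY and 42.6 CPM in Control) and the plasminogen receptor gene Plgrkt (37.6 CPM in LOY and 64.6 CPM in Control). Of 15 ADAM and ADAMTS genes 6 were measured, and Adam8 was higher (21.5 CPM in LOY and 6.79 CPM in Control).

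Of the 17 genes found for collagen processing and crosslinking, 7 were measured and 2 were higher in LOY. They were Tgm2, transglutaminase 2, which crosslinks fibronectin (42.0 CPM in LOY and 7.71 CPM in Control, 5.45-fold, 4.66 to 6.39), and Plod1, a collagen lysyl hydroxylase (94.2 CPM in LOY and 43.9 CPM in Control). Among 21 proteoglycan and hyaluronan genes 6 were measured, and Hmmr was higher (25.8 CPM in LOY and 10.0 CPM in Control). Hmmr is also expressed in dividing cells, and the cycling state had 392 cells in LOY and 153 in Control. The part of these cells in the Hmmr values was not tested. Of 18 matrix receptors 14 were measured, 5 were higher and 1 was lower. The higher ones included Itga6 (107 CPM in LOY and 44.2 CPM in Control) and the scavenger receptor Stab1 (550.3 CPM in LOY and 262 CPM in Control), and the others were Itga5, Itgav and Cd93. Cd36, a receptor for thrombospondin-1, was the lower one (86.6 CPM in LOY and 201 CPM in Control).

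**Figure D4:**
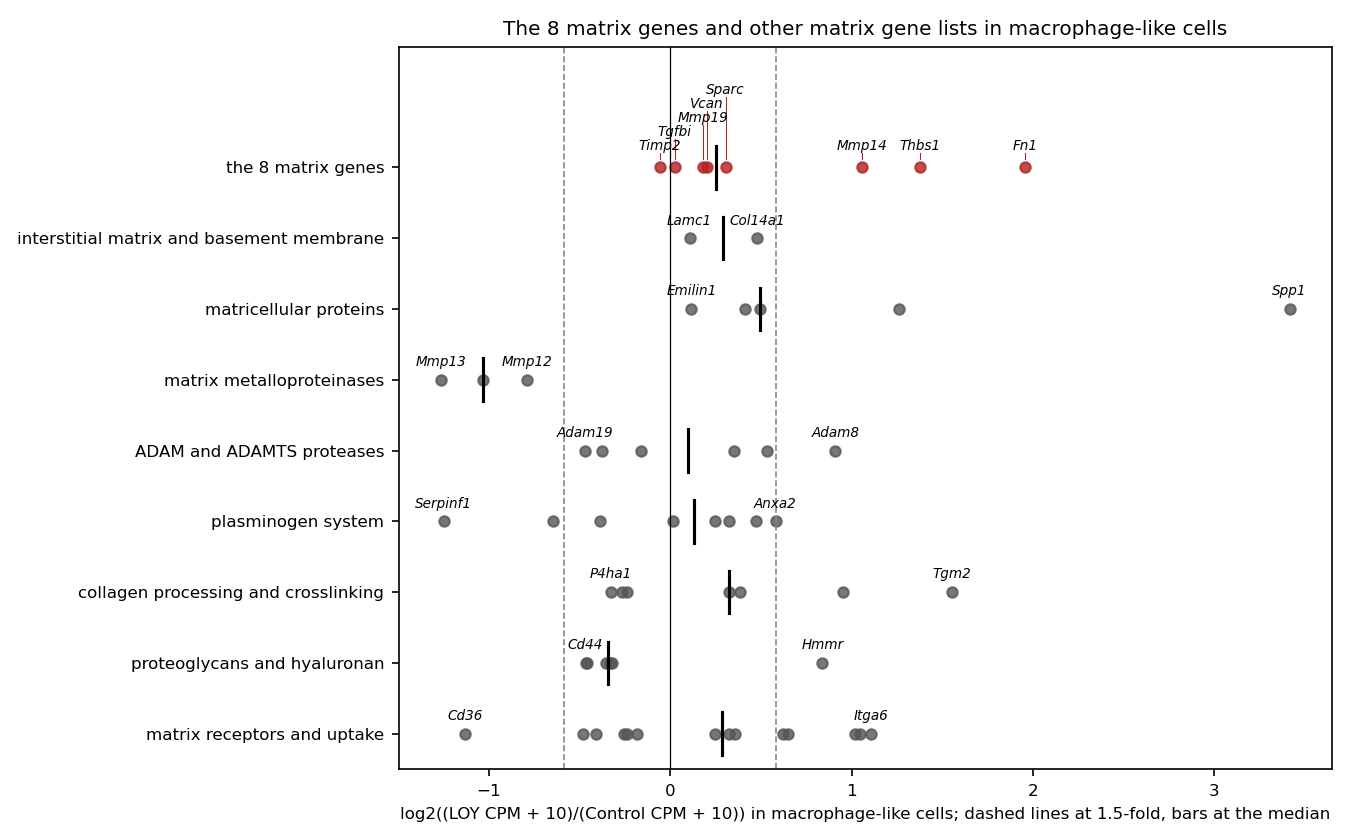
Ratio of LOY to Control in macrophage-like cells on the scale with 10 CPM added, for the 8 genes (red) and for the measured genes of 8 further lists (grey), with the median of each row as a bar and 1.5-fold as dashed lines. Fn1, Thbs1 and Mmp14 lie right of the upper line, and all 3 measured metalloproteinases of the list lie left of the lower one, with a median of -1.03.

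In monocyte-like cells the receptors again had more genes higher in LOY than lower (5 and 2 of 15 measured). The plasminogen system had 1 higher and 3 lower of 6 measured, led by Plaur, the urokinase receptor gene, at 60.8 CPM in LOY and 215 CPM in Control. Mmp12 was on opposite sides in the 2 classes, since monocyte-like cells had 58 UMIs (36.0 CPM) in LOY and 2 UMIs (1.45 CPM) in Control. Timp1 had 9.92 CPM in LOY and 31.1 CPM in Control. Mmp8, a collagenase, was lower in LOY as well, at 30.4 CPM in LOY and 83.2 CPM in Control.

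Over the 32 groups (class or state in a library) with at least 50 cells, the 8 genes fell into different company. These Pearson correlations of log2(CPM + 10) describe levels across cell groups that share 2 libraries and differ in depth. Timp2 was most like the macrophage genes C1qc, Mrc1 and Camk1 (r = 0.95 each), and Mmp14 most like Fcgr1 (0.85), Tmem119 (0.84) and Atp6v0c (0.82). Vcan was nearest to Chil3 (0.85), F10 (0.82) and Ly6i (0.78), and Thbs1 to Cd177 (0.89), Chil3 (0.89) and Prdx5 (0.88). Tgfbi was nearest to Lrrc25 (0.95), Alox5ap (0.93) and Csf2ra (0.92), genes of myeloid cells at large. Fn1 had looser partners, in Esd (0.78), Fam129b (0.77) and Tppp3 (0.73), and so had Mmp19, in Esd (0.69), Ptrhd1 (0.69) and Il18 (0.61). Sparc was nearest to the heart muscle genes Tnnt2 (0.88), Xirp2 (0.85) and Cryab (0.84), with a highest level of 19.2 CPM in the LOY cells of the Myl7 cluster, where it rested on 4 UMIs. Among the members themselves Vcan and Thbs1 were most alike (0.78), followed by Fn1 and Vcan (0.67).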

How the data were processed

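Raw UMI counts for every gene and barcode were deposited by the authors without normalization, and came from Cell Ranger 5.0.0 on mm10, per the submitters' processing notes. The annotation release and the barcode filter are not given in the sources used here. GENCODE M21, on mm10, supplied gene positions. Barcodes were kept from 500 UMIs, from 200 genes and up to 10% mitochondrial UMIs. The highest scrublet scores, 0.8% per 1000 barcodes, were removed as doublets in both libraries alike (235 LOY, 4.34%, and 391 Control, 5.59%), because the automatic threshold marked 0 LOY and 88 Control barcodes. The libraries were clustered jointly (scanpy 1.11.5, igraph 0.11.9, Python 3.11.15) on 2000 variable genes that left out the 8 members, Y-linked, mitochondrial, ribosomal-protein, haemoglobin and antigen-receptor genes and Xist, using 30 components, 15 neighbours, Leiden resolution 1 and no batch correction.

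A cluster was named for the cell type with most markers found in at least 25% of its cells, unless its 10 leading genes spoke for another type. A macrophage state needed at least 3 markers found in at least 25% of the cells. At least 2 had to be among the 10 genes leading over the other macrophage-like clusters. These names were rebuilt from markers, so the study's own may differ. UMI sums per class were converted to CPM, with exact Poisson intervals for sums, conditional binomial intervals for ratios and Clopper-Pearson intervals for shares (scipy 1.17.1). For a value of 0 the limit stands at 3 counts. The calculation was tested on simulated data drawn with counting error only, so that test does not cover UMIs clumped in single cells. Alternatives covered scaling, the added CPM, cell filters, doublets, clustering and weighting. Beside the members, the genes named are the 2 highest and 2 lowest measured genes of each list in macrophage-like cells, the 3 genes most like each member and the leading genes of clusters. Itga5, Itgav, Cd93 and Col1a1, and Plaur, Mmp8 and Timp1 in monocyte-like cells, were named after their values were seen. The members, lists and markers were chosen with earlier results of these data known.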

Additional observations from a re-analysis of the deposited data

Results flagged for a closer look

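In 4 of the 8 genes the LOY and Control libraries stood in opposite order in macrophage-like and monocyte-like cells. Only genes whose ratio interval excluded 1 in both classes were counted. Sparc, Tgfbi and Mmp19 also had opposite signs, but with an interval that held 1 in at least 1 class. The log2 ratio of LOY over Control, with 10 CPM added to each level, was 1.96 in macrophage-like and -1.23 in monocyte-like cells for Fn1, 0.20 and -1.24 for Vcan, 1.38 and -2.2 for Thbs1, and -0.059 and 0.73 for Timp2. The difference between the 2 classes was not tested, since each value compares 1 library with 1. For Vcan the macrophage-like level was 2.38 CPM in LOY and 0.774 CPM in Control, and for Timp2 the macrophage-like ratio was within 5% of 1. The opposite order was not stable for 3 of these 4 genes. In monocyte-like cells the log2 ratio of Fn1 ranged up to 0.077 over 14 alternatives, that of Vcan up to -0.011, and that of Timp2 turned in 3 alternatives, down to -0.73. In the Chil3 monocyte cluster the ratio was 1.02 for Fn1 and 0.911 for Vcan. Thbs1 kept its direction in both classes under every alternative run for them.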

How the results depend on the processing

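No paired analysis was possible because each group is 1 library. In macrophage-like cells 3 members were over 1.5-fold higher in LOY, and this count was 1 with 50 CPM added (Fn1), 5 with 1 CPM added, 1 with monocyte-like and unnamed myeloid clusters added (Mmp14), 1 with equal weight for each state (Thbs1) and, chosen after seeing the data, 1 without the Gpnmb and Tmem119 states (Fn1). In the other 13 of 18 alternatives it was within 1.5 times the count reported, and no member was over 1.5-fold lower under any. The median of the 8 log2 ratios was 0.063 with 50 CPM added and 0.90 with 1 CPM added. Over the alternatives the log2 ratio ranged from 0.43 to 2.50 for Fn1, from 0.14 to 2.57 for Thbs1 and from 0.36 to 1.53 for Mmp14. In the Lyve1 state, where 1 member was higher and 1 lower, the counts changed with most settings. The number higher was 0 with 50 CPM added, with per-cell means and with thinned cells, 2 with 1 CPM added, the automatic doublet threshold, resolution 0.5 or 2, separate clustering or the Slc40a1 state joined, and 3 with at least 1000 UMIs or at most 5% mitochondrial UMIs. The number lower was 2 without mitochondrial, ribosomal-protein and haemoglobin genes, with 1 CPM added or with the members among the clustering genes, 3 with thinned cells, and 0 with median-of-ratios factors, 50 CPM added, at least 1000 UMIs, at most 5% mitochondrial UMIs, no or automatic doublet removal, resolution 0.5, separate clustering or the Slc40a1 state joined. Fn1 was among the higher members with at least 1000 UMIs, at most 5% mitochondrial UMIs and the automatic doublet threshold. The same held at resolution 0.5 or 2, with separate clustering and with the Slc40a1 state joined. With thinned cells Fn1 was among the lower ones. Control cells of the Lyve1 state ranged from 88 to 1346 over these settings, and the cause of the changes was not tested. Applied to monocyte-like cells after seeing the data, the alternatives reversed Fn1 at most 5% mitochondrial UMIs (0.077) and Timp2 at most 5% mitochondrial UMIs (-0.73), with no doublets removed (-0.21) and with each library clustered on its own (-0.15), and the cause was not tested. Thbs1 kept its direction there, from -2.41 to -1.32. Low counts limit Sparc, Vcan and Mmp19 in macrophage-like cells.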

Other observations

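Taking all kept cells of a library together, Thbs1 was at 36.0 CPM in LOY and 32.7 CPM in Control, and Fn1 at 122 CPM in LOY and 79.3 CPM in Control. Mmp14 was at 32.6 CPM in LOY and 11.3 CPM in Control. Among the small unnamed clusters, the Retnla cluster held 30.1% of all Control Fn1 UMIs in 137 cells, and 10 of its cells held 52.0% of them. In the same cluster Mmp19 reached 75.0 CPM in LOY (10 UMIs) and 17.3 CPM in Control (25 UMIs).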
